A study of Homo sapiens with 6 samples.

Results

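The 7 miRNAs described here form a list of liver and gut lineage miRNAs with their family members, taken by name from the 2555 human miRNAs on the array. They are hsa-miR-122-5p of hepatocytes, hsa-miR-192-5p, hsa-miR-194-5p and hsa-miR-215-5p of endoderm-derived epithelium, and hsa-miR-148a-3p, hsa-miR-148b-3p and hsa-miR-152-3p of the miR-148 family. All 7 have a probe on the array. They were measured in HuCCT1, an established human cholangiocarcinoma (CCA) line of bile duct epithelium, spelled HuccT1 in the labels, in 3 control samples at 0 ng/ml and 3 samples at 10 ng/ml of TGF-β, all taken at 72 h. Each sample was total RNA labeled with Cy5 and hybridized to its own array. TGF-β is a cytokine that drives epithelial-mesenchymal transition (EMT), and the study asked which miRNAs it changes in CCA cells. Nothing in the labels says whether the 3 samples of a group were separate cultures, so p-values measure only the spread between these samples. All samples are of 1 cell line, and neither another CCA line nor normal cholangiocytes nor hepatocytes were on these arrays.

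MiRNAs guide the silencing of mRNAs mainly through the seed, bases 2 to 8 of the mature strand, so that miRNAs with the same seed share many predicted targets. MiR-122 is the dominant miRNA of hepatocytes and is needed for normal lipid metabolism there. MiR-192, miR-194 and miR-215 are abundant in liver, gut and kidney epithelium and slow the cell cycle. MiR-148a is abundant in liver and gut, and the miR-148 family is known for silencing the DNA methyltransferase DNMT1. Hepatocytes and cholangiocytes arise from the same fetal liver progenitors, which is why such miRNAs are of interest in a bile duct line.

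The mature sequences show how closely some of these probes' targets resemble each other. All 7 were found in the RefSeq table, at 8 loci of GRCh38.p14, since miR-194-5p has 2 genes. They are written 5′ to 3′ with the seed in capitals.
hsa-miR-122-5p: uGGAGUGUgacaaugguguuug
hsa-miR-192-5p: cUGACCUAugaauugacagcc
hsa-miR-215-5p: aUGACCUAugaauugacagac
hsa-miR-194-5p: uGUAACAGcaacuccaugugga
hsa-miR-148a-3p: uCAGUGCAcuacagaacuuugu
hsa-miR-148b-3p: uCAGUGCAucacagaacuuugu
hsa-miR-152-3p: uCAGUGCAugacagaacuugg

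There are 4 seeds among the 7. MiR-192-5p and miR-215-5p share a seed and are identical at 19 of 21 positions. With positions counted from 1 at the 5′ end and the miR-192-5p base first, they differ by C1A and C20A. MiR-148a-3p and miR-148b-3p are identical at 20 of 22 positions and differ by C9U and U10C. MiR-152-3p differs from miR-148b-3p by C10G and U20G over the 21 positions that both have. No other human mature miRNA of the 2370 in the table carries any of the 4 seeds. The closest relative of miR-192-5p other than miR-215-5p, miR-4793-3p, has 14 identical bases out of 21 without gaps, allowing a shift of 1 base.

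The genes lie in different places and, in part, in clusters. MIR192 (mature strand at chr11:64891203-64891223, minus strand) and MIR194-2 (chr11:64891404-64891425, minus strand) have 108 bases between their hairpins, and both lie within the lncRNA gene MIR194-2HG. MIR215 (chr1:220117916-220117936, minus strand) and MIR194-1 (chr1:220118206-220118227, minus strand) lie close to each other. Both are within the spans of IARS2 and of the lncRNA gene LOC124904515. MIR122 (chr18:58451088-58451109, plus strand) lies within the lncRNA gene MIR122HG. MIR148A (chr7:25949922-25949943, minus strand) lies within the lncRNA gene LOC105375199. MIR148B (chr12:54337278-54337299, plus strand) lies within COPZ1, and MIR152 (chr17:48037174-48037194, minus strand) within COPZ2. The table used gives gene spans only, so exons and introns were not told apart. Spans were matched by position without regard to strand, so a gene that spans a hairpin need not be its host.

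Each array carried 229 spots named as blank, and their brightness served as the background for every probe. The mean of the blank spots ranged from 29.5 to 82.3 brightness units over the 6 arrays and their SD from 1.78 to 7.63. The detection limit of an array was set 2 SD above its blank mean, and a miRNA whose probe was brighter was called detected there. Between 2 and 13 of the blank spots themselves passed this limit. Between 327 and 464 human miRNAs were detected per array, and 21.2% of the human probe signals exceeded the blank mean. A code in the names of the deposited files, read here as the chip, is shared by the control arrays and TGF-β array 1 and differs for TGF-β arrays 2 and 3. Neither the labels nor the headers name a chip, and if the code marks one, chip and treatment cannot be fully told apart.

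HuCCT1 cells gave a signal above the blank spots for 1 of the 7 lineage miRNAs, miR-192-5p, and for the other 6 no array passed the limit. Of the 42 signals (7 miRNAs on 6 arrays), 5 were above detection, and all 5 belonged to miR-192-5p. With the local background subtracted, a measure given below, miR-192-5p was detected on 0 arrays. None of the 7 was detected on all 6 arrays, against 11.4% of all human miRNAs (292 of 2555). Detection on all 3 control arrays, on all 3 TGF-β arrays or on both defined an expressed miRNA, which 14.3% of the 7 were (1 of 7) and 12.6% of all human miRNAs (323 of 2555). MiR-192-5p met this definition through the controls alone. Detection on no array held for 85.7% of the 7 (6 of 7) and for 80.1% of all human miRNAs (2047 of 2555). Both shares are near those of the whole array, so these counts do not set the 7 apart from other human miRNAs. In total RNA of a culture, a miRNA made by fewer cells and one made at a lower level per cell cannot be told apart, and a probe under the limit says only that the level was not detectable on these arrays.

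**Figure D1:**
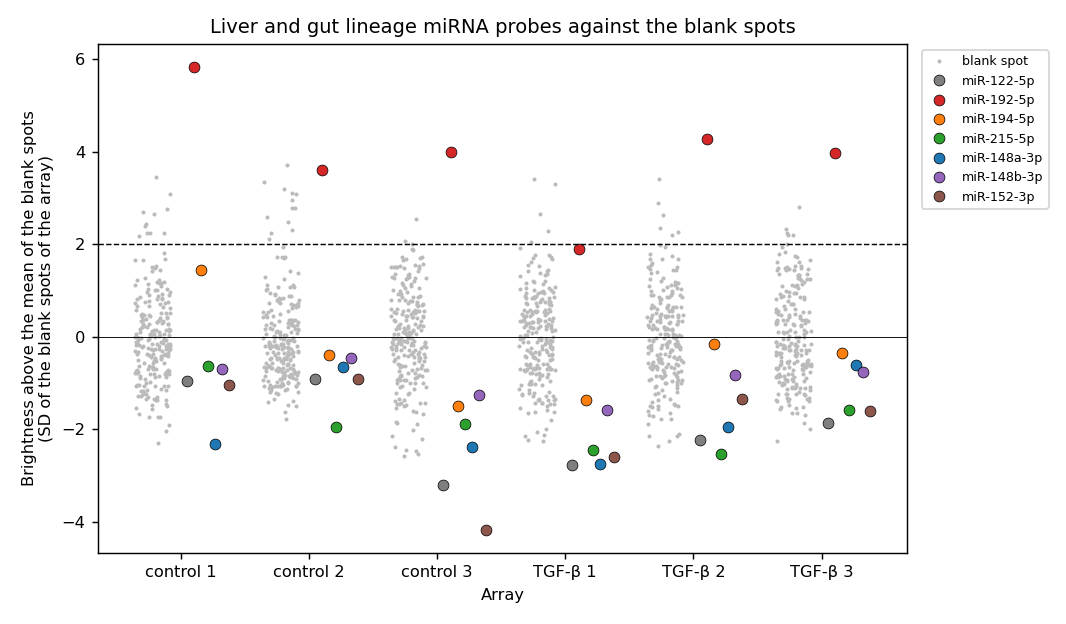
Brightness of the 7 probes (coloured points) and of the 229 blank spots (grey points) on each of the 6 arrays, as the distance from the mean of the array's blank spots in SD of those spots. The dashed line marks the detection limit of 2 SD. MiR-192-5p lies above the line on 5 arrays and at 1.89 SD on TGF-β array 1, and the other 6 miRNAs lie at or below 1.44 SD throughout.

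The hepatocyte miRNA, miR-122-5p, was below the blank mean on every array. Its probe lay at -0.95, -0.91 and -3.19 SD in controls 1, 2 and 3 and at -2.76, -2.24 and -1.87 SD in TGF-β samples 1, 2 and 3. Of the 229 blank spots, between 191 and 229 were brighter than the probe. The groups overlapped, and with both below background no fold change can be given.

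MiR-192-5p, which shares a transcript with miR-194 in the chromosome 11 cluster, was the one member above the blank spots, though with the local background subtracted it was detected on 0 arrays. Its probe lay at 5.82, 3.61 and 3.99 SD above the blank mean in the 3 controls, numbered 1 to 3, and at 1.89, 4.26 and 3.97 SD with TGF-β. It was brighter than every blank spot on 4 arrays, while 1 blank spot was brighter on control array 2 and 6 were brighter on TGF-β array 1. TGF-β array 1 was thus the array on which miR-192-5p missed the limit, with a brightness of 96.8 against 97.6. This was also the array with the highest blank mean and the widest spread of blank spots. When the 5% brightest and 5% dimmest blank spots were left out before taking the mean and SD, miR-192-5p was detected on all 6 arrays.

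MiR-194-5p can come from either cluster, and its probe did not pass the limit. Its highest signal was 1.44 SD on control array 1, the single value above the blank mean among the 36 signals of the 6 undetected miRNAs. On the other arrays miR-194-5p lay at -0.38 and -1.50 SD (control arrays 2 and 3) and at -1.36, -0.17 and -0.35 SD (TGF-β arrays 1, 2 and 3). On control array 1, 18 of the 229 blank spots were brighter than the miR-194-5p probe. The control and TGF-β arrays overlapped.

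MiR-215-5p, the seed partner of miR-192-5p, was below the blank mean on all arrays, at -0.63, -1.95 and -1.88 SD in the controls and at -2.45, -2.53 and -1.59 SD with TGF-β. Between 166 and 229 blank spots were brighter. The 2 miRNAs that share a seed thus fell on opposite sides of the limit on the 5 arrays that detected miR-192-5p, although their sequences differ at only 2 positions. How much of either miRNA binds the probe of the other was not tested.

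The 3 members of the miR-148 family were below the blank mean on all 6 arrays. MiR-148a-3p lay at -2.31, -0.65 and -2.38 SD without TGF-β and at -2.75, -1.95 and -0.60 SD with it. MiR-148b-3p lay at -0.70, -0.45 and -1.26 SD without and at -1.57, -0.83 and -0.77 SD with the cytokine. MiR-152-3p had the lowest signal of the 42, -4.16 SD on control array 3, and was otherwise at -1.05 and -0.91 SD in the controls and at -2.59, -1.34 and -1.61 SD with TGF-β. Over the 18 signals of the family, between 143 and 229 of the 229 blank spots were brighter, and for none of the 3 did the groups separate. Many human probes behave in this way, as most of them were dimmer than the mean blank spot.

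The opposite arms of the same precursors, which are usually the less abundant strands, were not detected. MiR-122-3p, miR-192-3p, miR-194-3p, miR-215-3p, miR-148a-5p, miR-148b-5p and miR-152-5p were each detected on no array and lay between -3.96 and -0.74 SD. For miR-192 the 5p arm was therefore above the limit on 5 arrays and the 3p arm on 0. As 80.1% of all human miRNAs were detected on no array, the count of 7 of 7 arms is no result about the arms.

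**Figure D2:**
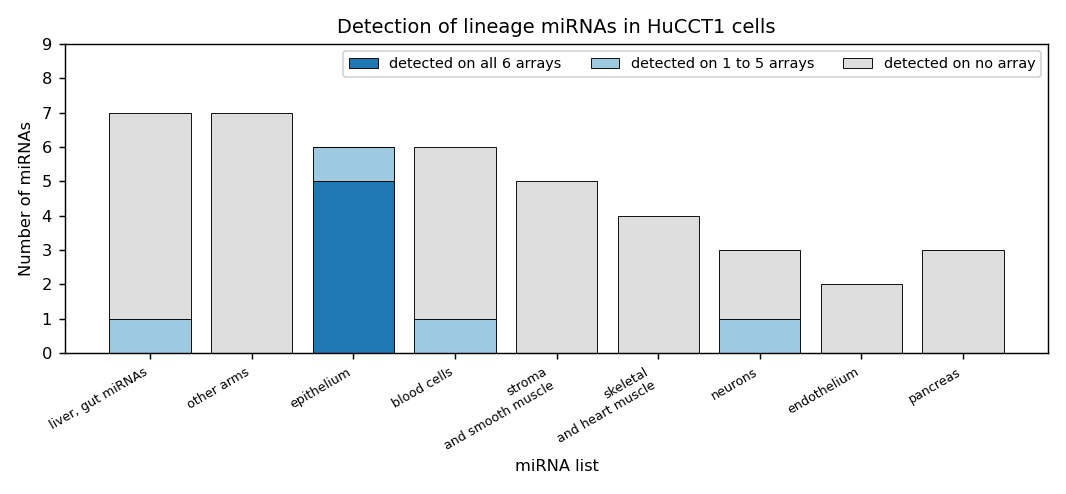
Number of miRNAs of each lineage list that were detected on all 6 arrays, on 1 to 5 arrays or on no array, with a detection limit of 2 SD over the blank mean. Of the 6 epithelial miRNAs, 5 were detected on all arrays, while the liver and gut list, its opposite arms and the lists of other lineages had none, where the share over all human miRNAs was 11.4%.

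The same rule was applied to other lineage markers. Of 6 epithelial miRNAs (the miR-200 family and miR-205-5p, which maintain the epithelial state), 5 were detected on all 6 arrays and miR-429 on 5. MiR-200c-3p lay between 108 and 272 SD above the blank mean. Of 23 miRNAs of blood cells, stroma and smooth muscle, skeletal and heart muscle, neurons, endothelium and pancreas, 0 were detected on all arrays and 21 on none. The other 2, miR-223-3p of myeloid cells and miR-9-5p of neurons, were each detected on 1 array. The 91.3% of these 23 on no array stand beside 80.1% of all human miRNAs, and none on all 6 arrays beside 11.4%, so that these counts do not set the lists apart from other human miRNAs. No miRNA of the epithelial list passed the limma adjusted p for TGF-β, and their median log2 change was 0.09, against 0.01 over the 323 expressed miRNAs.

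For the comparison of the groups, the blank mean was subtracted and signals were multiplied by a factor per array that brought the 292 miRNAs detected throughout to a median of 25. A signal under the limit was set to the lowest detected signal of its array. On this scale the detection limit lay between 1.83 and 4.30. The normalized signal of miR-192-5p was 5.32, 7.76 and 4.16 in controls 1, 2 and 3 and 4.45 and 7.65 in TGF-β samples 2 and 3. On TGF-β array 1 it was set to 4.06, where its own signal was 3.49. The means were 5.75 ± 1.84 (SD, n = 3) in the controls and 5.39 ± 1.97 (SD, n = 3) with TGF-β. The groups overlapped, and each held 1 array well above its other two.

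MiR-192-5p did not pass the test for a change with TGF-β. Its log2 change was -0.10 (standard error 0.32, 95% interval -0.83 to 0.62, limma adjusted p = 0.99 over the 323 expressed miRNAs). Among all expressed miRNAs, 0% passed the adjusted p (0 of 323, smallest limma adjusted p = 0.43), with 21 at an unadjusted p under 0.05, and the methods' t-test called 1 after Benjamini-Hochberg adjustment, miR-4521. Of the 7 lineage miRNAs, 0 of the 1 tested passed. MiR-192-5p entered the test through the controls alone, as it missed the limit on TGF-β array 1. A filter met through 1 group favours miRNAs that are high there, so the estimate is not free of that selection. A 2-sided exact permutation test on the normalized signal gave p = 0.70, and this design cannot go below 0.10. A p of this size does not show that the level was the same, since the interval runs from a fall by 0.83 to a rise of 0.62 on the log2 scale.

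**Figure D3:**
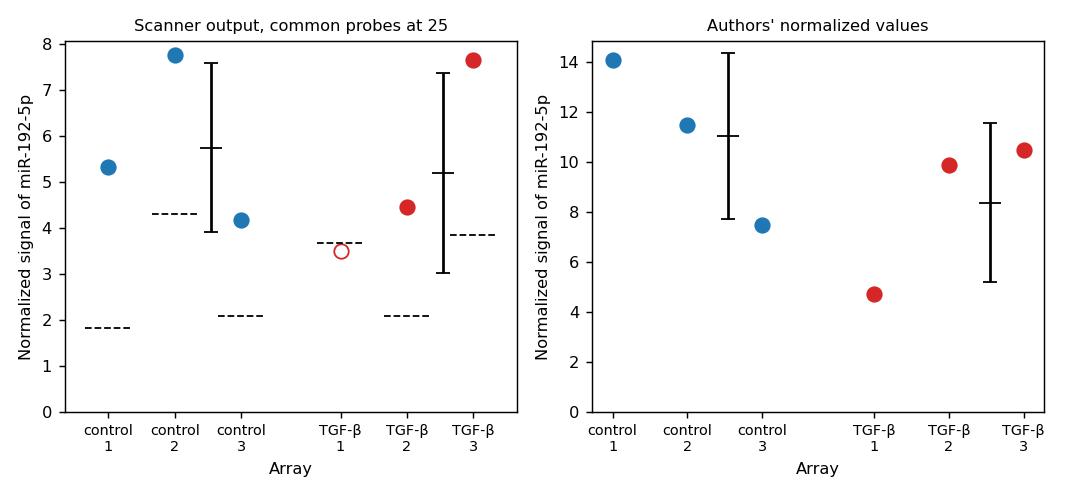
Normalized signal of miR-192-5p on each array, from the scanner output (left) and in the values normalized by the authors (right). Dashed lines are the detection limit of each array, the open circle is the signal under its limit, shown at its own value of 3.49, and the bars are the mean ± SD of 3 arrays, 5.75 ± 1.84 and 5.19 ± 2.18 on the left and 11.0 ± 3.32 and 8.37 ± 3.19 on the right.

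The normalized values deposited by the authors list miR-192-5p on all 6 arrays and miR-194-5p on control array 1 alone, and leave the other 5 miRNAs empty throughout. The dimmest miRNA they list on an array lay between 1.33 and 1.66 SD above the blank mean as computed here, so their listing reaches lower than 2 SD. MiR-194-5p on control array 1, listed at 3.6, was at that edge. MiR-192-5p was 14.1, 11.5 and 7.5 in the controls and 4.7, 9.9 and 10.5 with TGF-β. The means were 11.0 ± 3.32 (SD, n = 3) and 8.37 ± 3.19 (SD, n = 3), a ratio of 0.758. The groups overlapped here as well, and the 2-sided exact permutation test gave p = 0.40. The ratio of means from the scanner output was 0.937.

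A second background measure gave another answer for miR-192-5p. The scanner output holds a local background beside each spot, and that of the miR-192-5p spot lay 1.54 to 5.83 SD above the mean local background of the blank spots. When the local background was subtracted from every spot, including the blank ones, miR-192-5p lay between -1.17 and 1.11 SD and was detected on 0 arrays, a rule tried after the data had been seen. The other 6 miRNAs lay between -4.57 and 0.80 SD by this measure and were not detected either. The local background was higher beside bright spots in general. The median local background of detected probes was 1.82 to 3.02 times that of undetected probes on the same array, and of the 292 miRNAs detected on all arrays, 25 passed the local rule on all of them.

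**Figure D4:**
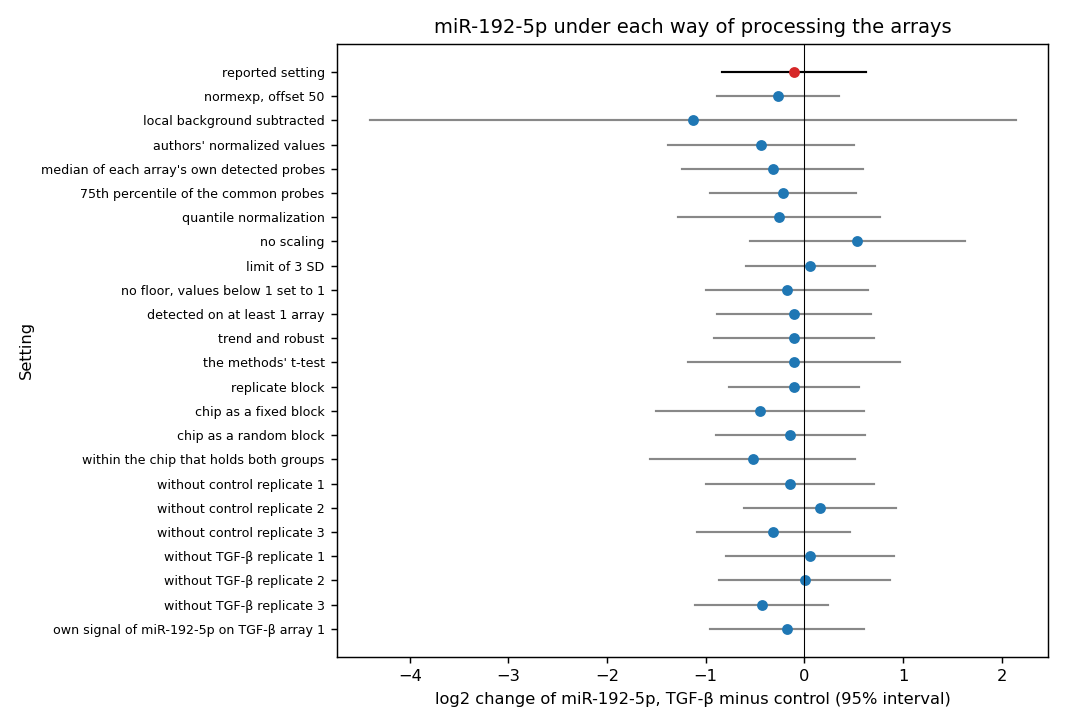
Log2 change of miR-192-5p (TGF-β minus control, points) with its 95% interval (lines) for the setting reported in the text (red) and 23 others (blue), from limma except for the methods' t-test. Every interval includes 0, and the estimates run from -1.13 with the local background subtracted to 0.54 with no scaling. With the local background subtracted, miR-192-5p was detected on 0 arrays, so the -1.13 is not the change of a detected signal.

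The direction of the miR-192-5p value depended on the processing and on single arrays. It was below 0 in 18 of the 23 other settings, which reuse the same arrays and are not independent of each other. The 18 include the subtraction of the local background, by which miR-192-5p was detected on 0 arrays. With all arrays kept, the value was above 0 with no scaling (0.54) and with a limit of 3 SD (0.0599). With arrays left out it ran from -0.43 without TGF-β array 3 to 0.16 without control array 2, with 3 of these 6 values above 0 (0.16, 0.055 without TGF-β array 1 and 0.0035 without TGF-β array 2). Within the file code that holds both groups, read as a chip, TGF-β array 1 alone stands against all controls. The value there was -0.53 on the log2 scale, and a lone array shows no spread of its group. That array is the one on which miR-192-5p was under the limit.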

How the data were processed

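MiRNAs were measured on 6 one-colour 3D-Gene arrays, 3 control and 3 TGF-β, grouped by their labels. The authors scanned the arrays and deposited, per the file headers, unnormalized spot intensity (pixel medians) and the local background of every spot. They also deposited normalized intensity values with the median of each array set to 25. The software version is not given in the sources used here.

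Spots with a failed flag (0 to 2 human probes per array) were treated as missing. No spot of the 7 miRNAs was flagged. Log2 signals were compared with limma 3.58.1 (run under R 4.3.3 with lmFit and eBayes, no block, and tested on simulated data), and p-values were adjusted by Benjamini and Hochberg with a threshold of 0.05. Alternatives were other backgrounds, scalings, limits, filters, blocks and left-out arrays. Differences within arrays between related miRNAs and the search for miRNAs of like pattern needed miRNAs detected on all arrays and gave no value. The number of arrays limits the precision. Values are given for the 7 members, their opposite arms and lineage lists. MiR-4521 and miR-629-5p were named after their values were seen. The members and lists were chosen with earlier results of these data known.

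Same-numbered arrays of the groups deviated from their group means with correlations of 0.12, 0.24 and 0.33 over 322 miRNAs. Differently numbered arrays are not set beside them, so these values do not show that the arrays are paired. What a number marks is not stated in the sources used here. Arrays correlated between 0.945 and 0.985. Sequences and gene spans are from RefSeq (GRCh38.p14).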

Additional observations from a re-analysis of the deposited data

How the results depend on the processing

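The number of the 7 miRNAs detected on all 6 arrays was 0. It was 1, miR-192-5p, with trimmed blank spots, in the authors' listing and with the No Probe spots as background, and 0 with 3 SD, the local background and the brightest blank spot as limits. The mean of the No Probe spots lay between -1.89 and -0.79 SD from the blank mean, so their limit is reached by dimmer probes. By it miR-194-5p was detected on 1 array, control array 1, at 3.30 SD of the No Probe spots above their mean. MiR-192-5p was detected on 5 arrays, on 4 to 6 under the other limits, and on 0 with the local background. The No Probe, local background and brightest blank spot limits, and the own signal of miR-192-5p on TGF-β array 1, were chosen after seeing the data.

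The log2 change of miR-192-5p was -0.10. It turned to 0.54 with no scaling and 0.0599 with a limit of 3 SD, and ran from -0.43 to 0.16 with arrays left out. The other settings gave -1.13 to -0.10, with limma adjusted p values over all settings between 0.47 and 0.999. The -1.13 came with the local background subtracted, by which miR-192-5p was detected on 0 arrays. The replicate block gave -0.10 (limma adjusted p = 0.98) and changed no call. Under that block 31 of the 323 expressed miRNAs had an unadjusted limma p under 0.05, and the smallest limma adjusted p was 0.15. The cause of the turns was not tested. MiR-192-5p was the only 1 of the 7 that was tested, and it did not pass the adjusted p in any setting that tested it. The count over all expressed miRNAs was 0 in limma, 1 by the methods' t-test (miR-4521), and 0 to 1 with arrays left out, the 1 being miR-629-5p without TGF-β array 3 (limma adjusted p = 0.039). With miRNAs detected on all 6 arrays, miR-192-5p was not tested, and scaling on all human probes gave no value, as their median was below the blank mean.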
